A study of Rattus norvegicus with 24 samples.

Results

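The mRNA levels of 10 genes of autophagy and mitophagy were followed in the hearts of rats that ate rotenone, an inhibitor of mitochondrial complex I. The genes were Sqstm1, Gabarapl1, Map1lc3a, Map1lc3b, Ulk1, Becn1, Bnip3, Bnip3l, Pink1 and Atg12. They were chosen by name for their part in autophagy, with earlier results of these data known. Counts of these genes set beside shares of all clusters below are therefore descriptions and no test of the set. The 10 genes were found by taking the transcript clusters, the array's units of measurement, that carry exactly 1 gene symbol. Each of the 10 genes had 1 such cluster, among 22093 genes with 1 symbol and 68842 transcript clusters tested.

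The apex of the left ventricle was taken from male RccHan Wistar rats that were 7 to 8 weeks old and received either untreated feed or feed with 400 ppm rotenone for 1, 3 or 14 days. Each of the 6 groups of diet and day held 4 rats, and each of the 24 arrays (Affymetrix Rat Transcriptome Array 1.0) measured the heart of 1 rat. The rotenone rats lost body weight and no pair-fed or weight-matched group is described. A direct effect of rotenone therefore cannot be told apart from one of the weight loss. The same holds for any lower feed intake, which the paper's text does not give by group. Values are log2 intensities, on which a difference of 1 is a 2-fold ratio, and each change is rotenone minus the controls of the same day, given as mean ± SE. A change was called at a limma adjusted p below 0.05, with the Benjamini-Hochberg adjustment over all 68842 transcript clusters.

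Autophagy encloses cytoplasm in a membrane, the autophagosome, and delivers it to the lysosome for breakdown. The Ulk1 kinase starts the process, the Becn1 complex makes the lipid signal on which the membrane grows, and proteins of the Atg8 family are then attached to that membrane, where cargo receptors such as Sqstm1 bind them. Mitophagy is the same removal applied to mitochondria, marked either by the kinase Pink1 or by the outer membrane receptors Bnip3 and Bnip3l, and heart muscle, which is dense in mitochondria, is a tissue in which it is much studied.

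The median log2 intensity of an array lay between 4.94 and 5.19, and the mean correlation of an array with the others of its group between 0.986 and 0.990. The 95th percentile of 1153 negative control probes was 8.44, and 7 of the 10 genes had a mean above this bound. Map1lc3b (mean 7.94), Becn1 (7.89) and Atg12 (7.41) lay below it, among values that negative controls also reach. Of 10 cardiomyocyte markers, 9 were measured, all 9 lay above the bound and none was called on any day. Mb, Actc1 and Pln (means of 19.92, 19.84 and 19.71) lie at the top of the scale and are no measure of the share of cardiomyocytes. Fibroblast markers were called lower for 5 of 8 genes at day 3 (Col1a1, Col1a2, Col3a1, Lum and Postn) and 4 of 8 at day 14 (the same without Postn). Dcn (-0.18 and -0.32 at days 3 and 14), Pdgfra (-0.45 and -0.43) and Tcf21 (-0.26 and 0.43, below the bound) were not called. Summed intensities of the 8 genes were 62160 to 103560 in rotenone hearts against 118860 to 140190 in controls at day 3. At day 14 they overlapped, with 57243 to 111200 against 94664 to 133890. These sums of linear intensities weigh most on Dcn, the brightest of the 8 genes (mean log2 16.36, with Col3a1 next at 13.06). No marker of endothelial cells (7 measured), smooth muscle and pericytes (6) or macrophages and leukocytes (7, none above the bound) was called. The part of these lower fibroblast markers in the changes below was not tested, nor whether fibroblasts were fewer.

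One rotenone heart of day 14, rat 1, lay nearest to the controls of all 4 rotenone hearts of that day for Sqstm1, Gabarapl1, Map1lc3b, Ulk1, Bnip3 and Pink1. Without it, 3225 transcript clusters were called at day 14 instead of 1989, and the day 14 changes of the 10 genes are therefore also given without it. Because this heart was picked for lying nearest to the controls, leaving it out must enlarge the changes of the genes just named. Values and calls gained without it are therefore descriptions and no separate support. No called marker of fibroblasts or red cell precursors lost its call at day 14 without it, and 1 cardiomyocyte marker, Nppa, was then called higher (2.24, adjusted p = 0.00571, against 1.59, adjusted p = 0.13, with it).

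For 4 of the 5 genes with a called change on at least 1 day, the sequence around the transcription start site is shown, because these are the promoters of the genes that the results turn on. Sequences are the 250 bases before and 50 after the start in RefSeq (build GRCr8), 5′ to 3′ on the strand of the gene. They lie at chr10:35037701-35038000 (minus strand) for Sqstm1, chr4:164666082-164666381 (plus) for Gabarapl1, chr12:51511242-51511541 (plus) for Ulk1 and chr5:155825901-155826200 (minus) for Pink1. Capitals mark matches to any of 6 motifs, named after them.
Sqstm1: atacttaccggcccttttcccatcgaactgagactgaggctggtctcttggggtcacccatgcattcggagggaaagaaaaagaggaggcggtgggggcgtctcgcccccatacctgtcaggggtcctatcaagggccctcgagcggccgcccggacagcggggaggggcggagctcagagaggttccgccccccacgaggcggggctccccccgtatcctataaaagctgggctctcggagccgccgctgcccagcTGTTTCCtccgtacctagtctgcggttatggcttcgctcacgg
Gabarapl1: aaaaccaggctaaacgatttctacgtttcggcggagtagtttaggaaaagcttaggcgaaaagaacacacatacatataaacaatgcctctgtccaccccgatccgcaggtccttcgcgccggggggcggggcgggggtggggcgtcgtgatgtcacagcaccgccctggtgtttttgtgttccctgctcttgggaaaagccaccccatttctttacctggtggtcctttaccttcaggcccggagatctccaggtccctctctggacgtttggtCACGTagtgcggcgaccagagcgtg
Ulk1: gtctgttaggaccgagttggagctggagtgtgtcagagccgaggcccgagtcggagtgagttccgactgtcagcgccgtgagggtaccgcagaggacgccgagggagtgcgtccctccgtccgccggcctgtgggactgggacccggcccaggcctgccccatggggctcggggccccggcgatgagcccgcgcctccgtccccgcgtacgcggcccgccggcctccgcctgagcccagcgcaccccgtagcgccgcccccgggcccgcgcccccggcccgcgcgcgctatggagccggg
Pink1: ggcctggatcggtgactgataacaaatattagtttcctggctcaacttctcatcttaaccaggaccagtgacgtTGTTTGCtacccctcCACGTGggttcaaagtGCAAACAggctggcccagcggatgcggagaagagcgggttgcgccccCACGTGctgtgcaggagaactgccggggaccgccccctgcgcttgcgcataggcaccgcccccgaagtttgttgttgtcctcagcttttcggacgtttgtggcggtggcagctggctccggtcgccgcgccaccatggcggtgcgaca
The motifs, searched on both strands, were the E-box CACGTG and its extended form TCACGTGA, the FoxO site TGTTTAC and its relaxed form TGTTTNC, the core of the antioxidant response element TGACNNNGC and the core of the hypoxia response element ACGTG. The extended E-box contains the E-box, which in turn contains ACGTG, and the relaxed FoxO letters contain the strict ones. Pink1 held the E-box at window positions 90 and 153 and the relaxed FoxO letters at 75 and 106, counted from 1 at the 5′ end. Sqstm1 held the relaxed FoxO letters at position 258 and Gabarapl1 the hypoxia core, as CACGT on the other strand, at 276. No match was found in the Ulk1 window. Promoters were matched for 7 of the 10 genes (not Map1lc3a, Becn1 and Bnip3l), and 2 of the 7 held the E-box (Bnip3 and Pink1) against 6.42% of 33469 promoters. The relaxed FoxO letters stood in 3 of the 7 (Sqstm1, Pink1 and Atg12) against 21.1% of promoters, the hypoxia core in 4 (Gabarapl1, Bnip3, Pink1 and Atg12) against 19.3% and the antioxidant core in 1 (Map1lc3b) against 12.1%. The extended E-box (0.777% of promoters) and the strict FoxO site (3.78%) stood in none of the 7. These matches are letters in a window and do not show binding.

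After 1 day of rotenone, Sqstm1 and Gabarapl1 were called higher and no member was called lower. By day 3 the calls were Gabarapl1 and Pink1, both higher. At day 14 Sqstm1, Gabarapl1 and Pink1 were higher and Ulk1 and Bnip3l lower. The 2 of 10 genes called higher at day 1 compare with 0.199% of all transcript clusters called higher and 0.291% called lower. At day 3 the 2 of 10 called higher compare with 0.291% higher and 0.549% lower, and at day 14 the 3 higher and 2 lower of 10 with 1.4% higher and 1.49% lower. Among the 10140 clusters above the negative control bound, the shares were 0.907% higher and 1.33% lower at day 1, 1.31% and 1.6% at day 3 and 5.24% and 5.44% at day 14. The split of all calls depended on scaling: 40.7% of the calls at day 1 were higher, but 61.6% after quantile normalization, and 48.5% at day 14, but 25% with equal array medians.

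The median change of the 10 genes was 0.30 at day 1, 0.35 at day 3 and 0.26 at day 14, beside 0.02, 0.03 and 0.04 over all clusters tested. Over all genes with 1 symbol it was 0.014, 0.006 and -0.0005, and over those above the negative control bound -0.05, -0.001 and -0.03. On every day 7 of the 10 changes were positive and 3 negative. All 4 rotenone hearts lay above all 4 controls for 6 genes at day 1, for 4 at day 3 and for 4 at day 14, where 2.84%, 3.72% and 4.58% of all clusters did so. All rotenone hearts lay below all controls for 0, 2 and 2 genes, where 2.88%, 3.21% and 3.17% of clusters did so.

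**Figure D1:**
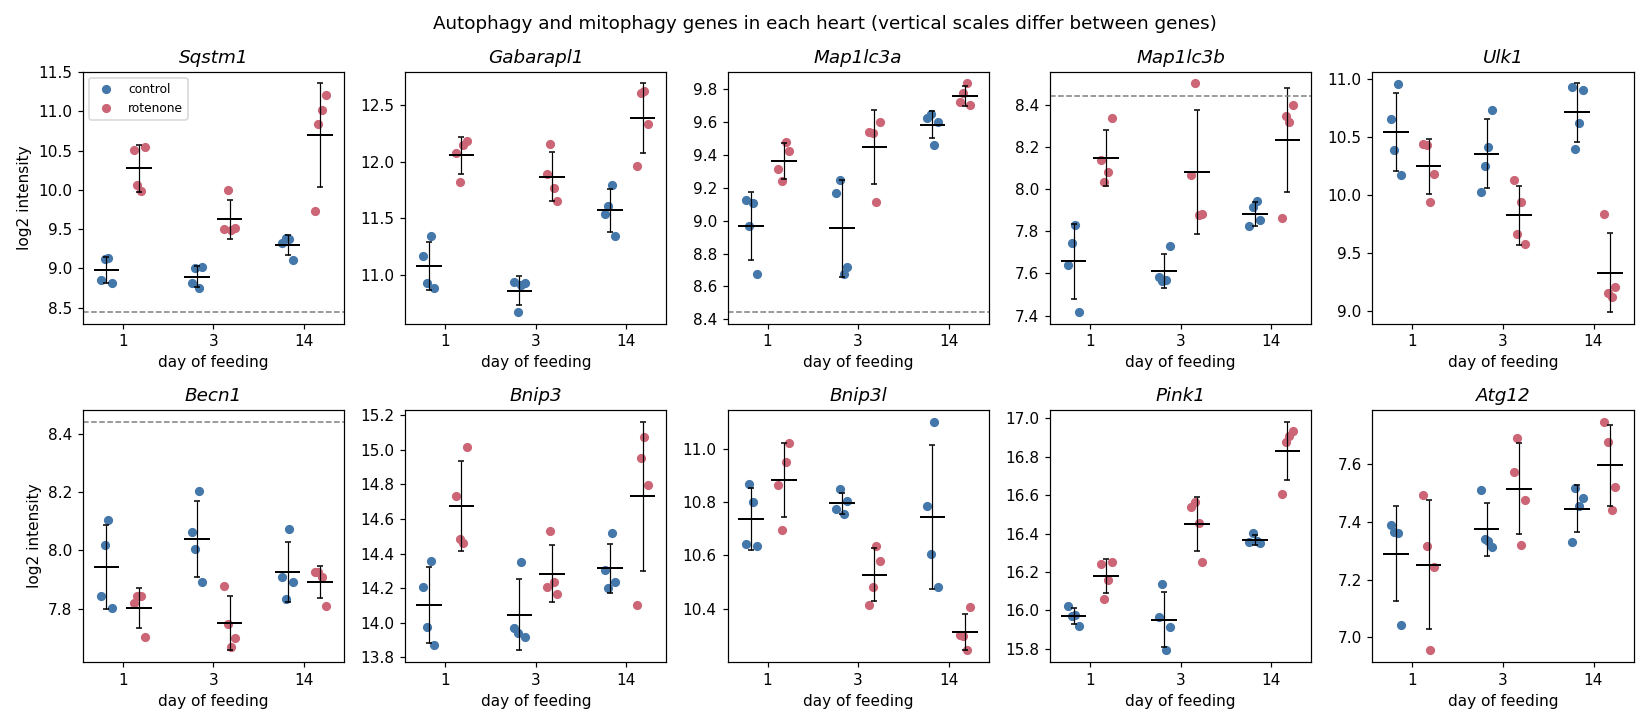
Log2 intensity (vertical axis, a scale of its own in each panel) of the 10 genes by day of feeding, with 1 point per heart, blue for control and red for rotenone, and bars for the mean ± SD (n = 4). The dashed line, where it falls within a panel, is the negative control bound of 8.44. Sqstm1, Gabarapl1 and Pink1 were separate from the controls on all 3 days, whereas Ulk1 and Bnip3l at day 14 lay below them.

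Sqstm1 encodes p62, the receptor that links ubiquitin-tagged cargo to the autophagosome and is itself broken down there. At day 1 the control hearts measured 8.85, 9.12, 9.13 and 8.82 and the rotenone hearts 10.51, 10.06, 9.98 and 10.54. At day 3 the values were 8.81, 9.01, 8.75 and 9.01 in controls and 9.50, 10.001, 9.49 and 9.52 under rotenone. At day 14 they were 9.32, 9.38, 9.37 and 9.11 in controls and 9.73, 10.84, 11.01 and 11.20 under rotenone. The groups did not overlap on any day, and at day 14 rat 1 of the rotenone group lay far below the other three. The change was 1.29 ± 0.22 at day 1 (adjusted p = 0.00598) and 1.40 ± 0.22 at day 14 (adjusted p = 0.00115). At day 3 it was 0.73 ± 0.22 and was not called (adjusted p = 0.152), although in the fit without rotenone rat 1 of day 14 the same change had an adjusted p of 0.013. Leaving that rat out gave 1.72 at day 14 (adjusted p = 1.64e-06). The change at day 3 did not differ from that at day 1 or day 14 past the threshold (adjusted p = 0.893 and 1). Of genes with 1 symbol above the bound, those closest to Sqstm1 over the 24 hearts were Ubr4, a ubiquitin ligase (r = 0.96), and Fdft1, squalene synthase (r = 0.95). All such correlations here are descriptions over hearts that share groups and a diet, and they include the differences between groups. With each group's mean taken off, those given here for the 10 genes ran from 0.36 (Map1lc3a with Bckdha) to 0.97 (Bnip3 with Bnip3-ps1).

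Gabarapl1 belongs to the Atg8 family, whose members coat the growing autophagosome and hold receptors such as p62. Control hearts measured 11.17, 10.93, 11.34 and 10.89 at day 1 and rotenone hearts 12.08, 11.82, 12.15 and 12.18. The values at day 3 were 10.94, 10.68, 10.91 and 10.94 without rotenone and 11.90, 12.15, 11.77 and 11.65 with it. At day 14 the controls had 11.54, 11.61, 11.80 and 11.34 and the rotenone hearts 11.96, 12.60, 12.63 and 12.34. Every rotenone heart exceeded every control heart of its day. The rise was 0.97 ± 0.15, 1.00 ± 0.15 and 0.81 ± 0.15 at days 1, 3 and 14 (adjusted p = 0.00267, 0.00128 and 0.00425), and 0.95 at day 14 without rat 1 (adjusted p = 0.00038). It was the only member called on all 3 days. Controls of day 14 stood 0.49 above those of day 1. Even so, the rotenone hearts of day 1, at 12.06 ± 0.16 (SD, n = 4), lay above the controls of day 14, at 11.57 ± 0.19. The genes most like it were Lrrc2 (r = 0.95), a leucine-rich repeat protein, and Clic5 (r = 0.94), an intracellular chloride channel protein.

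Map1lc3a and Map1lc3b encode LC3A and LC3B, the Atg8 proteins most used to mark autophagosomes. Neither was called on any single day, with changes of 0.40, 0.49 and 0.18 (SE 0.13, adjusted p = 0.331, 0.099 and 0.635, or 0.19 at day 14 without rat 1, adjusted p = 0.634) for Map1lc3a and of 0.49, 0.47 and 0.35 (SE 0.14, adjusted p = 0.143, 0.121 and 0.201) for Map1lc3b. Rotenone hearts spanned 9.24 to 9.48 for Map1lc3a at day 1 against 8.68 to 9.13 in controls, 9.11 to 9.60 against 8.68 to 9.25 at day 3 and 9.70 to 9.84 against 9.46 to 9.65 at day 14. The groups were thus apart at days 1 and 14 and overlapped at day 3, through 1 low rotenone heart (rat 3), without which the change at day 3 was 0.60 and called (adjusted p = 0.04). For Map1lc3b the ranges were 8.03 to 8.34 against 7.42 to 7.83, 7.88 to 8.50 against 7.56 to 7.73 and 7.86 to 8.40 against 7.82 to 7.95. They were apart at days 1 and 3 and overlapped at day 14 through rat 1, without which Map1lc3b was called (0.47, adjusted p = 0.0416). Its near copy Map1lc3b2 has a cluster of its own on the array (changes of 0.34, 0.60 and 0.36, none called), and whether the probes separate the pair was not tested. Bckdha, a subunit of the branched-chain keto acid dehydrogenase (r = 0.85), and the dynein light chain Dynlrb1 (r = 0.85) were closest to Map1lc3a, and the non-muscle myosin Myh14 (r = 0.95) and the lipid enzyme Cds2 (r = 0.94) to Map1lc3b.

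Ulk1, the kinase that starts autophagy when nutrients are short, went the other way. Control hearts of day 14 measured 10.93, 10.40, 10.62 and 10.90 and rotenone hearts 9.84, 9.16, 9.12 and 9.20. All 4 rotenone hearts lay below all 4 controls, with rat 1 again nearest to them. The fall was 1.39 on the log2 scale (SE 0.20, adjusted p = 0.000485), and without rat 1 the change was -1.56 (adjusted p = 5.42e-05). At day 1 rotenone hearts spanned 9.94 to 10.44 and controls 10.18 to 10.96, and at day 3 the ranges were 9.57 to 10.13 and 10.03 to 10.73. These groups overlapped, with changes of -0.30 ± 0.20 (adjusted p = 0.759) and -0.53 ± 0.20 (adjusted p = 0.298) that were not called. The change at day 14 differed from that at day 1 by -1.09 ± 0.28, with an unadjusted p of 0.000838 that did not pass the adjustment (adjusted p = 0.152). Hdlbp, an RNA-binding protein (r = 0.92), and Atp6v0a2, a subunit of the proton pump that acidifies lysosomes (r = 0.91), had the most similar patterns.

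Becn1, the scaffold of the lipid kinase complex, and Atg12, the ubiquitin-like protein whose conjugate attaches the Atg8 proteins to the membrane, were not called on any day. The changes of Becn1 were -0.14, -0.29 and -0.03 (SE 0.092, adjusted p = 0.752, 0.172 and 0.926). At day 3 its rotenone hearts spanned 7.67 to 7.88 and its controls 7.89 to 8.21, which did not overlap, but all of these values lie below the negative control bound. Atg12 changed by -0.04, 0.14 and 0.15 (SE 0.12, adjusted p = 0.965, 0.779 and 0.639), with overlap on every day. Without rat 1 the day 14 changes were -0.05 for Becn1 (adjusted p = 0.901) and 0.10 for Atg12 (adjusted p = 0.801). Slc30a9 and Pyurf were closest to Becn1 (r = 0.77 and 0.75) and Cops7a and Mzt1 to Atg12 (r = 0.79 and 0.75).

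Pink1 encodes the kinase that gathers on damaged mitochondria and marks them for removal. The controls of day 1 measured 16.02, 15.97, 15.98 and 15.92 and the rotenone hearts 16.24, 16.06, 16.16 and 16.25. At day 3 the values were 15.96, 16.14, 15.79 and 15.92 against 16.54, 16.56, 16.46 and 16.25, and at day 14 16.36, 16.41, 16.36 and 16.35 against 16.61, 16.88, 16.91 and 16.93. The rotenone hearts lay above the controls of the same day throughout, by less than 1 unit. The change was 0.21 ± 0.095 at day 1 (adjusted p = 0.579), 0.50 ± 0.095 at day 3 (adjusted p = 0.00978) and 0.46 ± 0.095 at day 14 (adjusted p = 0.00889), or 0.54 at day 14 without rat 1 (adjusted p = 0.0014). Both calls depended on scaling. With equal array medians the changes were 0.47 and 0.41 (adjusted p = 0.0697 and 0.0731), and after quantile normalization 0.39 and 0.23 (adjusted p = 0.372 and 0.55). The call at day 3 also rested on 1 heart, rotenone rat 2 of that day, without which the change was 0.46 (adjusted p = 0.0501). Bckdha (r = 0.96) and Oat, ornithine aminotransferase of the mitochondrial matrix (r = 0.94), were the genes most like Pink1.

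Bnip3 and Bnip3l encode paired receptors of the outer mitochondrial membrane, the first induced by low oxygen and the second known for clearing mitochondria from maturing red cells. For Bnip3 the controls spanned 13.87 to 14.36 at day 1, 13.92 to 14.35 at day 3 and 14.20 to 14.52 at day 14, and the rotenone hearts 14.46 to 15.02, 14.17 to 14.53 and 14.10 to 15.07. Only the groups of day 1 were apart. The changes of 0.57, 0.24 and 0.42 (SE 0.18, adjusted p = 0.237, 0.736 and 0.257) were not called, and that of day 14 was 0.63 and called without rat 1 (adjusted p = 0.0188). The pseudogene Bnip3-ps1 has a cluster of its own on the array that followed Bnip3 most closely of all genes compared (r = 0.96, with changes of 0.56, 0.08 and 0.31, none called), ahead of Idh1 (r = 0.89), the cytosolic isocitrate dehydrogenase. The levels of Bnip3 are therefore uncertain.

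Bnip3l was the second member to fall. Control hearts of day 14 measured 10.78, 10.61, 11.10 and 10.48 and rotenone hearts 10.30, 10.30, 10.25 and 10.41. At day 3 the controls had 10.77, 10.85, 10.76 and 10.80 and the rotenone hearts 10.41, 10.48, 10.64 and 10.58. The groups were apart on both days. At day 1 rotenone hearts (10.70 to 11.02) overlapped controls (10.64 to 10.87). The change was 0.15 ± 0.11 at day 1 (adjusted p = 0.803), -0.27 ± 0.11 at day 3 (adjusted p = 0.386) and -0.43 ± 0.11 at day 14 (adjusted p = 0.0368). This last call was lost on leaving out any 1 of 5 of the 8 hearts of day 14 (control rats 1 and 3, rotenone rats 2, 3 and 4), with adjusted p up to 0.14 and a change of -0.31 without control rat 3. Without rotenone rat 1 it was kept (-0.43, adjusted p = 0.0489).

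The genes most like Bnip3l over the 24 hearts were Rsad2, an interferon-induced antiviral protein (r = 0.91), and Slc4a1, the anion exchanger of the red cell membrane (r = 0.88). With each group's mean taken off, r was 0.74 for Rsad2 and 0.58 for Slc4a1. Of 7 red cell precursor markers, 6 were measured (Alas2, Slc4a1, Epb42, Ahsp, Klf1 and Rhag) and 2 lay above the negative control bound. Their summed intensity was 2174 to 4713 in controls of day 1, 2651 to 4803 at day 3 and 1878 to 9460 at day 14. In rotenone hearts it was 2822 to 8735 at day 1, 724 to 1555 at day 3 and 274 to 638 at day 14. The rotenone hearts of days 3 and 14 were thus below all the others, and 0, 3 and 4 of the 6 markers were called lower at days 1, 3 and 14. The part of red cell precursors in the Bnip3l values was not tested. In whole tissue, fewer cells of a type and less RNA per cell cannot be told apart.

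**Figure D2:**
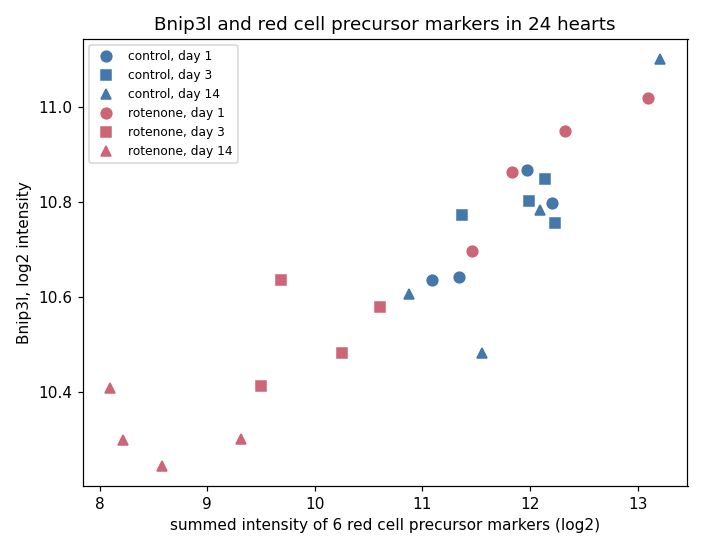
Bnip3l (log2 intensity, vertical axis) against the summed intensity of 6 red cell precursor markers (log2, horizontal axis) in each of the 24 hearts, by diet (blue control, red rotenone) and day (circle 1, square 3, triangle 14). The 8 rotenone hearts of days 3 and 14 lie at the left. Within groups the order was mixed. The control heart of day 14 with the highest marker sum (9460) also had the highest Bnip3l (11.10). But the rotenone heart of day 14 with the lowest sum (274) had the highest Bnip3l of its group (10.41). Likewise the control heart of day 3 with the highest sum of its group (4803) had the lowest Bnip3l there (10.76).

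Averaged over the 3 days, the rotenone change was called for 7 of the 10 genes, 6 higher and 1 lower, where 2.52% and 3.07% of all transcript clusters were called higher and lower. The increases were 1.14 ± 0.13 for Sqstm1 (adjusted p = 7.64e-06), 0.93 ± 0.087 for Gabarapl1 (8.36e-07), 0.44 ± 0.078 for Map1lc3b (0.00113), 0.41 ± 0.10 for Bnip3 (0.0177), 0.39 ± 0.055 for Pink1 (9.54e-05) and 0.35 ± 0.078 for Map1lc3a (0.00681). Ulk1 was lower by 0.74, as a change of -0.74 ± 0.11 (0.000265). Becn1 (-0.16, adjusted p = 0.0964), Bnip3l (-0.18, 0.109) and Atg12 (0.08, 0.597) were not called. The call of Bnip3 was lost with equal array medians (0.37, adjusted p = 0.0628) and after quantile normalization (0.35, 0.106). Becn1 and Bnip3l were called lower among clusters at or above the median level (adjusted p = 0.0313 and 0.0437), and Bnip3l among those above the negative control bound (0.0233). Whether the 3 daily changes were unequal was tested with a limma F-test, which called none of the 10 genes and 0.0145% of all clusters. Its unadjusted p was below 0.05 for Ulk1 (0.00209, adjusted p = 0.31) and Bnip3l (0.00424, adjusted p = 0.388) alone, so a difference between days was not shown for any member.

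**Figure D3:**
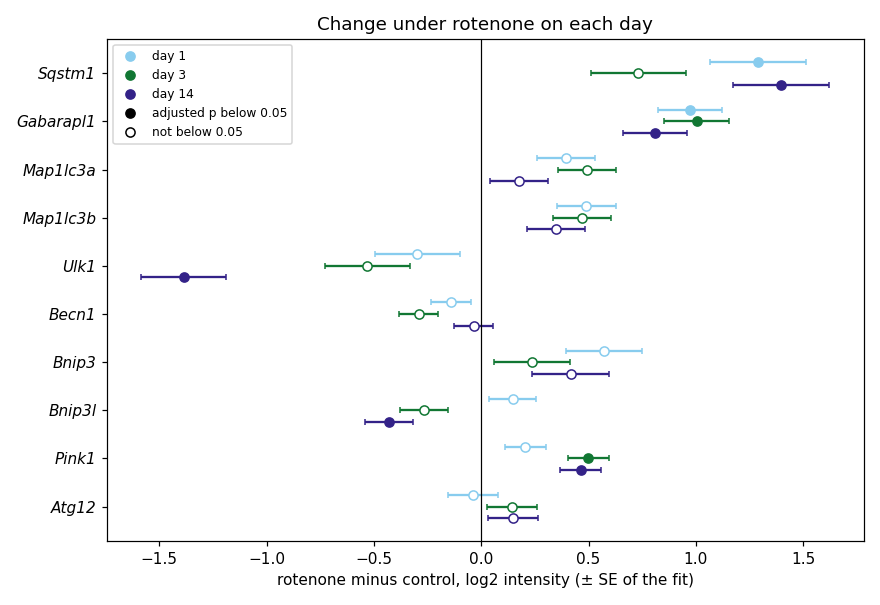
Change of each of the 10 genes under rotenone (horizontal axis, rotenone minus control of the same day in log2 intensity, ± SE of the limma fit, n = 4 against 4) at days 1, 3 and 14. Filled points were called at an adjusted p below 0.05. Gabarapl1 was called on all 3 days, Sqstm1 at days 1 and 14, Pink1 at days 3 and 14, and Ulk1 (-1.39) and Bnip3l (-0.43) at day 14.

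No member was called between days in untreated rats. Between control hearts of day 14 and day 1 the difference was 0.62 for Map1lc3a (unadjusted p = 0.000163, adjusted p = 0.47), 0.49 for Gabarapl1, 0.40 for Pink1 (unadjusted p = 0.000429, adjusted p = 0.479) and 0.31 for Sqstm1 (unadjusted p = 0.173). None of the 10 genes and 0% of the clusters were called by limma in this comparison, whereas 3 of the 10 (Map1lc3a, Gabarapl1 and Pink1) and 5013 of 68842 clusters had an unadjusted p below 0.05. For Pink1 the mean of the day 14 controls, 16.37 ± 0.025 (SD, n = 4), was above the mean of rotenone hearts of day 1, 16.18 ± 0.089.

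The wider pathway was read from 9 lists of autophagy genes ordered by role, also chosen with earlier results of these data known. In these lists 97 of 101 genes were measured and 58 lay above the negative control bound. At days 1 and 3, 5 of the 97 were called higher and none lower, and at day 14, 9 were higher and 8 lower, with median changes of 0.06, 0.06 and 0.02. As shares these were 5.15%, 5.15% and 9.28% higher and 8.25% lower at day 14. Of all clusters, 0.199%, 0.291% and 1.4% were called higher, and 1.49% lower at day 14. Of the 58 list genes above the bound, 5, 3 and 6 were called higher and 0, 0 and 6 lower at days 1, 3 and 14. Among all clusters above the bound the shares called were 0.907%, 1.31% and 5.24% higher and 5.44% lower at day 14. Leaving out the 10 genes above, 3, 3 and 6 of 87 were called higher and 0, 0 and 6 lower, with median changes of 0.06, 0.06 and 0.01. The medians were 0.02, 0.03 and 0.04 over all clusters and 0.014, 0.006 and -0.0005 over all genes with 1 symbol. Over genes with 1 symbol above the bound they were -0.05, -0.001 and -0.03. At day 14 this was 6.9% each way, where 1.4% and 1.49% of all clusters were called higher and lower. Of the 51 of these 87 genes that lie above the bound, 3, 1 and 3 were called higher and 0, 0 and 4 lower at days 1, 3 and 14. The other calls at day 3, Pik3c3 and Wipi2, lie below the bound. The 3 and 4 of 51 at day 14 are near the 5.24% and 5.44% of all clusters above the bound. Without rotenone rat 1, no list gene lost its day 14 call, and 17 of the 97 were higher and 10 lower (12 and 8 of the 87). Of all clusters, 2.56% were then called higher and 2.13% lower, and of clusters above the bound 9.19% and 7.86%. Beside Map1lc3b and Bnip3, the calls gained were Uvrag, Wipi2, Nbr1, Calcoco1, Bcl2 and Depp1, higher, and Bcl2l13 and Usp15, lower.

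Of the cargo receptors 12 of 13 were measured, and 3 were called higher at day 1, none at day 3 and 1 at day 14. Beside Sqstm1 these were Retreg1, a receptor for the endoplasmic reticulum, at day 1 (0.68, adjusted p = 0.00657), and Calcoco1 at day 1 (0.62, adjusted p = 0.021). Calcoco1 (0.46 and 0.45, adjusted p = 0.0931 and 0.0503) and Nbr1 (0.39, 0.31 and 0.30) had positive changes on the other days without a call, whereas the change of Retreg1 was 0.02 at day 14. Within the Atg8 family Gabarapl1 was the only gene of 5 called, and its relative Gabarap changed by 0.11, 0.24 and 0.14.

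Among the 5 genes of the Ulk kinase complex, Atg13, the partner that holds the kinase, was called higher at day 14 (0.60, adjusted p = 0.0498) while Ulk1 was lower. Atg13 had changes of similar size at days 1 and 3 (0.63 and 0.64, adjusted p = 0.105 and 0.0707). Ulk2, the paralogue of Ulk1, changed by -0.26 at day 14 and Rb1cc1 by -0.08, neither called. In the complexes around Becn1, Pik3c3, the lipid kinase itself, was higher at day 3 (0.42, adjusted p = 0.0382) and day 14 (0.41, 0.0231), and Ambra1 at day 14 (0.40, 0.0171). Both lie below the negative control bound, and Atg14 (0.39, 0.25 and 0.32) was not called.

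Wdr45, a lipid-binding protein of the growing membrane, was the only listed autophagy gene outside the 10 called on all 3 days (0.85, 0.70 and 0.74, adjusted p = 0.00584, 0.0199 and 0.00713). Its relative Wipi2 was called at day 3 (0.39, adjusted p = 0.0429), below the bound. Tmem41b, a lipid scramblase, was lower at day 14 (-0.55, adjusted p = 0.00957), and Atg9a (-0.26 at day 14) was not called. In the conjugation machinery, where Atg12 acts, Atg3, the enzyme that attaches Atg8 proteins to lipid, was higher at day 14 (0.33, adjusted p = 0.0183). The protease Atg4a, which trims those proteins, was lower (-0.68, adjusted p = 0.00191). Atg4b (0.09 at day 14) and Atg5 (-0.03) were not called.

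The remaining lists had calls at day 14 only, apart from Pink1. Of the fusion genes, Snap29 (-0.63, adjusted p = 0.00698) and Ykt6 (-0.34, 0.0454), which bring autophagosome and lysosome together, were lower, and Vps16, a tethering subunit, was higher (0.38, 0.0315), the last 2 below the bound. Of 21 regulators, Tp53inp2, below the bound (-0.94, adjusted p = 0.00167), and Deptor, an inhibitor of the kinase mTOR (-0.87, 0.0266), were lower. Foxo1 (-0.51, 0.0702) and Depp1 (1.44 ± 0.46, 0.0985) were not called. Of 14 mitophagy genes measured, no gene beyond Pink1 and Bnip3l was called, and the ubiquitin ligase Mul1 stood just outside (0.48 and 0.44 at days 3 and 14, adjusted p = 0.0652 and 0.0503).

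**Figure D4:**
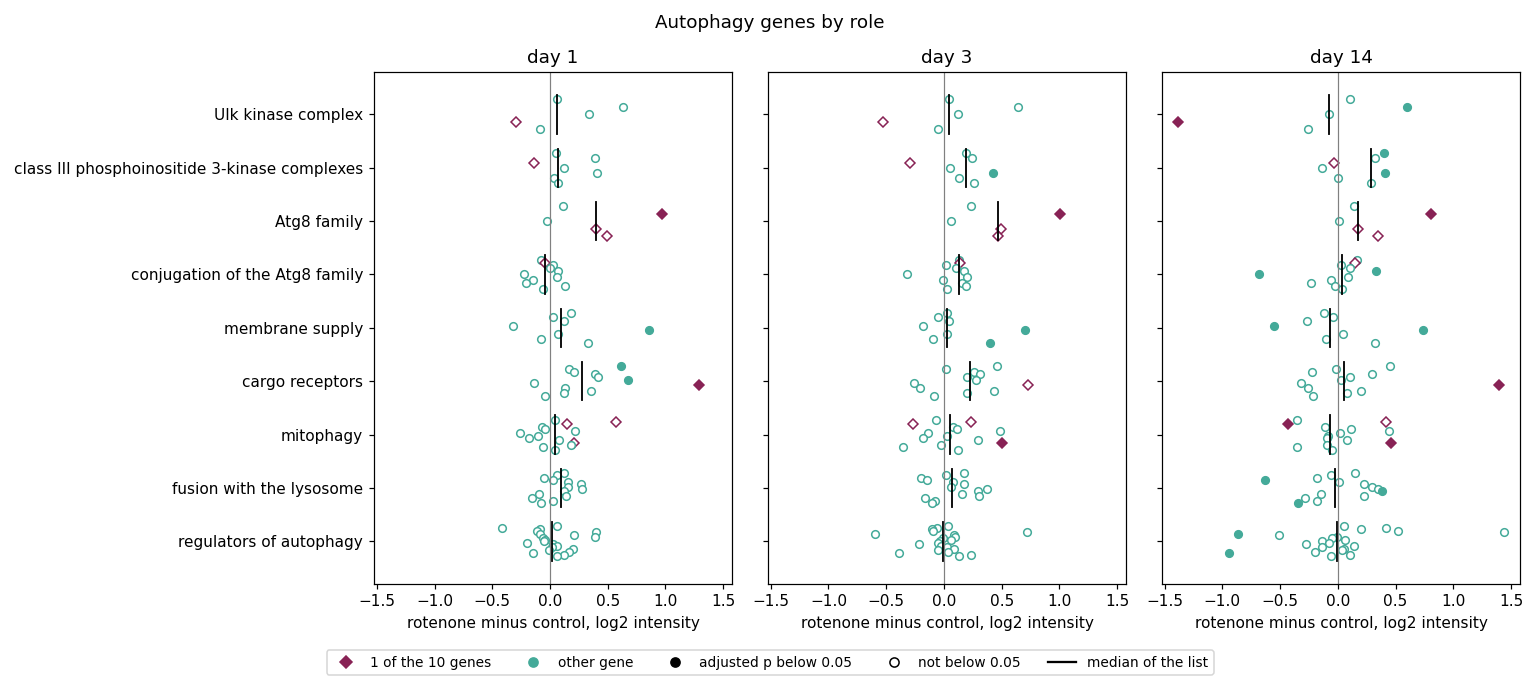
Change under rotenone (horizontal axis, log2 intensity, rotenone minus control) of 97 autophagy genes in 9 lists by role at days 1, 3 and 14, with 1 point per gene, diamonds for the 10 genes, filled points for an adjusted p below 0.05 and a vertical bar for the median of each list. At days 1 and 3 the called genes are all on the right (5 each), and at day 14 they lie on both sides (9 and 8).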

How the data were processed

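Left ventricular apex RNA of 24 rats was hybridised to 1 array each. Intensities were deposited by the authors as linear values per transcript cluster, already normalised with GCCN (a correction for GC content), SST (a signal transformation) and RMA, RMA also being named in the submitters' processing notes. Software versions and genome build were not given in the sources used here. Those deposited intensities were log2 transformed with no further normalisation, and 1738 control probes were left out, leaving 68842 clusters. Scanner intensities carry no read depth, and 4 arrays per group limit the precision.

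Group means of all 6 groups were fitted with limma 3.58.1 in R 4.3.3 (lmFit, eBayes), so that all groups share 1 spread per cluster, and p-values were adjusted by Benjamini-Hochberg over all clusters. Probe annotations gave 1 symbol for 23446 clusters, several for 505 and none for the rest. A gene with several clusters was read from the one with the highest mean. Figures were drawn with matplotlib 3.10.9. The 10 genes and all lists were chosen with earlier results of these data known. From each list of other autophagy genes, up to 4 with the smallest p on any day are named, and for each of the 10 the 2 genes of highest Pearson r. The fit was tested on simulated data. Alternatives were equal array medians, quantile normalisation, 2 filters on dim clusters, trended robust variances, array weights and the replicate block. Others were only the 8 arrays compared, a minimum change of 1.8-fold, the treatment term of the methods' factorial test and leaving out each array. The list counts and gene changes printed without rotenone rat 1 of day 14 were chosen after seeing the data. So were the gene values of the mean effect by setting.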

Additional observations from a re-analysis of the deposited data

Results flagged for a closer look

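In 10 of the 60 groups of 4 hearts (10 genes in 6 groups) the highest or lowest heart stood apart from the other three by Dixon's 95% criterion, which chance exceeds in about 1 group in 20. No cause of the values below was tested.

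At day 14, rotenone rat 1 stood apart for Map1lc3b, at 7.86 against 8.32 to 8.40 in the other three, and for Ulk1, at 9.84 against 9.12 to 9.20, in both genes towards the controls. Rotenone rat 4 of that day was low for Becn1, at 7.81 against 7.91 to 7.93. At day 3, rotenone rat 2 was high for Sqstm1, at 10.001 against 9.49 to 9.52, and rotenone rat 3 low for Map1lc3a, at 9.11 against 9.53 to 9.60. Among the controls of day 3, rat 1 was high for Atg12, at 7.51 against 7.31 to 7.34, rat 2 low for Gabarapl1, at 10.68 against 10.91 to 10.94, rat 3 high for Bnip3, at 14.35 against 13.92 to 13.97, and rat 4 high for Map1lc3b, at 7.73 against 7.56 to 7.58. Control rat 4 of day 1 was low for Atg12, at 7.04 against 7.36 to 7.39. No rat other than rotenone rat 1 of day 14 stood apart for more than 1 of the genes.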

How the results depend on the processing

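The 337, 578 and 1989 clusters called at days 1, 3 and 14 became 365 and 1265 at days 3 and 14 with equal array medians, 654, 1211 and 3303 among clusters at or above the median level, 643 and 936 at days 1 and 3 above the negative control bound, 68, 123 and 118 with only the 8 arrays compared, and 128, 232 and 513 with a minimum change of 1.8-fold. The filters test fewer clusters, and fits on 8 arrays have fewer degrees of freedom. For the other changes of count the cause was not tested. Leaving out 1 array gave 172 to 416, 301 to 772 and 885 to 3225 clusters.

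Of the 10 genes, 2, 2 and 5 were called at days 1, 3 and 14. At day 3 this was 1 with equal medians, after quantile normalisation, with 8 arrays and with the 1.8-fold minimum, and 4 under both filters. At day 1 it was 1 with 8 arrays, and at day 14 it was 1 with 8 arrays and 2 with the 1.8-fold minimum. Leaving out 1 array gave 2, 1 to 3 and 4 to 7. For the mean rotenone effect, 7 genes (6 higher) became 6 (5 higher) with equal medians and after quantile normalisation. They were 9 (6 higher) above the median level and 7 to 8 without 1 array. The treatment term of the methods' factorial test, at an unadjusted ANOVA p below 1e-05, called 4 (Sqstm1, Gabarapl1, Ulk1 and Pink1). The study's selection also asked for a Kruskal-Wallis p below 0.05 and a 1.8-fold change, which were not applied here. Pink1 changed by 1.41-fold at most, at day 3. With 8 arrays Gabarapl1 (adjusted p = 0.0539 and 0.13 at days 1 and 14), Pink1 (0.194 and 0.174 at days 3 and 14), Sqstm1 (0.117) and Bnip3l (0.27) lost calls, while Ulk1 kept its call at day 14. Filtering added Sqstm1 (adjusted p = 0.0435), Map1lc3a (0.0204 and 0.039) and Map1lc3b (0.0488) at day 3. The sign turned for Atg12 at day 1 (0.0015 after quantile normalisation, and -0.1218 to 0.05974 without 1 array) and for Becn1 at day 14 (-0.06547 to 0.01485 without 1 array). No other member's sign changed under any alternative run. No member was called between control days or for a difference between days with either scaling, either filter, the trended variances, array weights, the block or 1 array left out. The other alternatives gave no value for these comparisons. Taking the mean of several clusters per gene was not run, since each of the 10 had 1.

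Replicate numbers are shared between groups, but same-numbered arrays of a day did not consistently deviate together. Their correlations ran from -0.64 to 0.52, with 5 of 12 over 0.1, and 1 of 12 control arrays correlated best with its own number. With the replicate block, 297, 519 and 1794 clusters were called, and no call among the 10 genes changed.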
